A study of Homo sapiens with 32 samples.

Results

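The genes described here are E2F1, E2F2, E2F3, E2F7, E2F8, RB1, RBL1, RBL2, FOXM1 and MYBL2, followed across the 16 groups of an irradiation study in human epithelial cell lines. They were found by gene symbol in the deposited count table, where each symbol has 1 row, and make up 10 of its 60332 genes. E2F1, E2F2 and E2F3 are activating E2F factors, which switch on genes for the start of S phase. E2F7 and E2F8 are atypical E2Fs, which repress many of the same genes. RB1, RBL1 (p107) and RBL2 (p130) are the pocket proteins, which bind E2F factors and hold their targets down until cyclin-dependent kinases phosphorylate them. MYBL2 (B-MYB) joins the MuvB core in S phase, and FOXM1 follows it there to drive genes of G2 and mitosis. In cells with damaged DNA, p53 induces CDKN1A (p21), which inhibits those kinases and favours the repressive DREAM complex of RBL1 or RBL2, E2F4 and MuvB. E2F7 is itself a known p53 target.

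Polyadenylated RNA was sequenced from 32 libraries, 2 in each group, in 3 experiments that share no library. MCF10A is a non-transformed line from breast epithelium, and hTERT RPE-1 is a line from retinal pigment epithelium immortalised with telomerase. All groups but 1 received 10 Gy of ionising radiation (IR). In the first experiment, MCF10A wild-type (WT) cells were untreated, irradiated with DMSO and collected at 3 or 5 days, or irradiated with CDK1i and collected at 5 days. MCF10A lines labelled cGAS KO, STING KO and XRCC4 KO were irradiated and collected at 5 days. In the second experiment, MCF10A cells were irradiated and collected at 3 days as WT, p53 KO, XRCC4 KO, XRCC4 KO with ATRi, the double knockout XRCC4 p53 DKO, and DKO with ATRi. In the third, RPE-1 cells labelled WT, WT cGAS and p53 KO were irradiated with ATRi and collected at 3 days. CDK1i and ATRi stand for inhibitors of the kinases CDK1 and ATR, added 1 h ahead of the irradiation and left on the cells. cGAS and STING act in DNA sensing, and XRCC4 acts in the end joining of broken DNA. The design text asks what loss of p53 and of the G2-M checkpoint does after irradiation.

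Several features of the design limit what a group stands for. Each knockout line came from lentiviral delivery of CRISPR-Cas9 and a single-cell colony, so the effect of a deletion and of a clone cannot be told apart. No knockout line was measured without irradiation. DMSO is named alone for the WT groups irradiated without CDK1i in the first experiment, so knockout and vehicle cannot be told apart there. The same holds for irradiation and vehicle against untreated WT. No vehicle is named for the groups that ATRi is compared with, so ATRi and its vehicle cannot be told apart from the labels. The label WT cGAS does not say how cGAS was introduced. The labels do not tell whether both libraries of a pair are separate cultures, and p-values then measure only the spread between these libraries. In bulk RNA, fewer cells of a type (here, fewer cycling cells) and less RNA per cell cannot be told apart.

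Libraries held 5590061 to 18585999 counts in all. Within groups, library differences gave a chi-square per gene of 1.55 to 45.1, and 5 of the 16 groups lay above 20. These were the 4 WT groups and STING KO of the first experiment, and the common biological coefficient of variation was 0.187 there, 0.0361 in the second experiment and 0.0345 in the third. MCF10A libraries had the keratin KRT5 at 1731 to 8867 FPKM (fragments scaled per kilobase and by depth, as deposited). RPE-1 libraries had OTX2 at 8.24 to 13.4 FPKM, but RPE65 at no more than 0.022 FPKM and TYR at no more than 0.024 FPKM, so defining markers of mature pigment epithelium were near 0. Counts of the cGAS gene MB21D1 were 15 to 20 in cGAS KO against 86 to 749 in the other 24 MCF10A libraries, and those of the STING gene TMEM173 were 103 to 127 in STING KO against 327 to 2618. XRCC4 counts were 66 to 293 in the 10 libraries of XRCC4-deleted lines and 37 to 239 in the other 16, so its RNA does not check that label. In RPE-1, MB21D1 had 2 and 100 counts in the 2 WT libraries, 6199 and 6158 in WT cGAS, and 8 and 6 in p53 KO, so the second WT library stands apart from the first.

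Promoter sequences are shown first because the best known regulation within this group is E2F control of E2F genes themselves. Sequences are from RefSeq (GRCh38.p14), and 8 of the 10 genes matched an entry with 250 bases before and 50 after the transcription start. FOXM1 and E2F8 had none, and the RB1 entry lies inside the gene and is not shown. Both strands were searched for 4 spellings of the E2F element, TTTGGCGC, TTTCCCGC, TTTGCCGC and TTTCGCGC, and for the CHR element TTTGAA, through which DREAM and MYBL2-MuvB are known to bind. At least 1 E2F spelling is present in 3.315% of all 35116 promoters and TTTGAA in 15.16%. The 100 bases before the start are printed 5′ to 3′ on the strand of the gene, with matches in capitals. The positions are chr20:33686386-33686485 on the minus strand for E2F1, chr1:23531234-23531333 minus for E2F2, chr6:20401779-20401878 plus for E2F3 (its first entry), chr20:37095998-37096097 minus for RBL1, chr12:77065570-77065669 minus for E2F7 and chr20:43667014-43667113 plus for MYBL2.
E2F1: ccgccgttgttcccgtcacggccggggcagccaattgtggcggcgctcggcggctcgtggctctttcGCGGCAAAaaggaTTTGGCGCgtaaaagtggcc
E2F2: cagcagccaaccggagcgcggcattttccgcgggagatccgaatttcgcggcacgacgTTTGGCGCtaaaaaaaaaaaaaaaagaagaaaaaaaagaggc
E2F3: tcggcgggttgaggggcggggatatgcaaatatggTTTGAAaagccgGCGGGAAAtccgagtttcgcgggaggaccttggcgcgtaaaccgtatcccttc
RBL1: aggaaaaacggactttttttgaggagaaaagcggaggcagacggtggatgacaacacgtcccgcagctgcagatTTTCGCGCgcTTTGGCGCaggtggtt
E2F7: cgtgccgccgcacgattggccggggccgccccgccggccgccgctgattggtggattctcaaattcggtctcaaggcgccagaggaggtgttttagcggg
MYBL2: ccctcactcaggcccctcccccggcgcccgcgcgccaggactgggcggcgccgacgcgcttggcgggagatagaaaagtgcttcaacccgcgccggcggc

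E2F1 and RBL1 hold 2 of these E2F spellings each, and E2F2 and the first entry of E2F3 hold 1 each, all within the printed bases. E2F3 also holds 1 TTTGAA. The first entry of RBL2, which is not printed, holds 1 TTTGAA at bases 25 to 30 after the start and no E2F spelling. The windows of E2F7 and MYBL2 hold none of these letters, which says nothing about the factors that act there. Of 26 matched G1-S target genes 15 (57.7%) held an E2F spelling, and of 25 matched G2-M target genes 15 (60%) held TTTGAA. A match of letters is a description and not a shown binding site.

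The 10 genes differed widely in how far their levels moved over the 32 libraries. MYBL2, E2F2, E2F8 and FOXM1 spanned the widest ranges, with a highest FPKM over the lowest of 515, 208, 163 and 110. E2F7, E2F1 and RBL1 spanned 30.5, 24.5 and 13.4. RBL2, RB1 and E2F3 stayed within 2.94, 2.55 and 2.49. The lowest library of E2F2 and that of E2F8 had 2 counts each, so those ranges are uncertain at the low end.

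**Figure D1:**
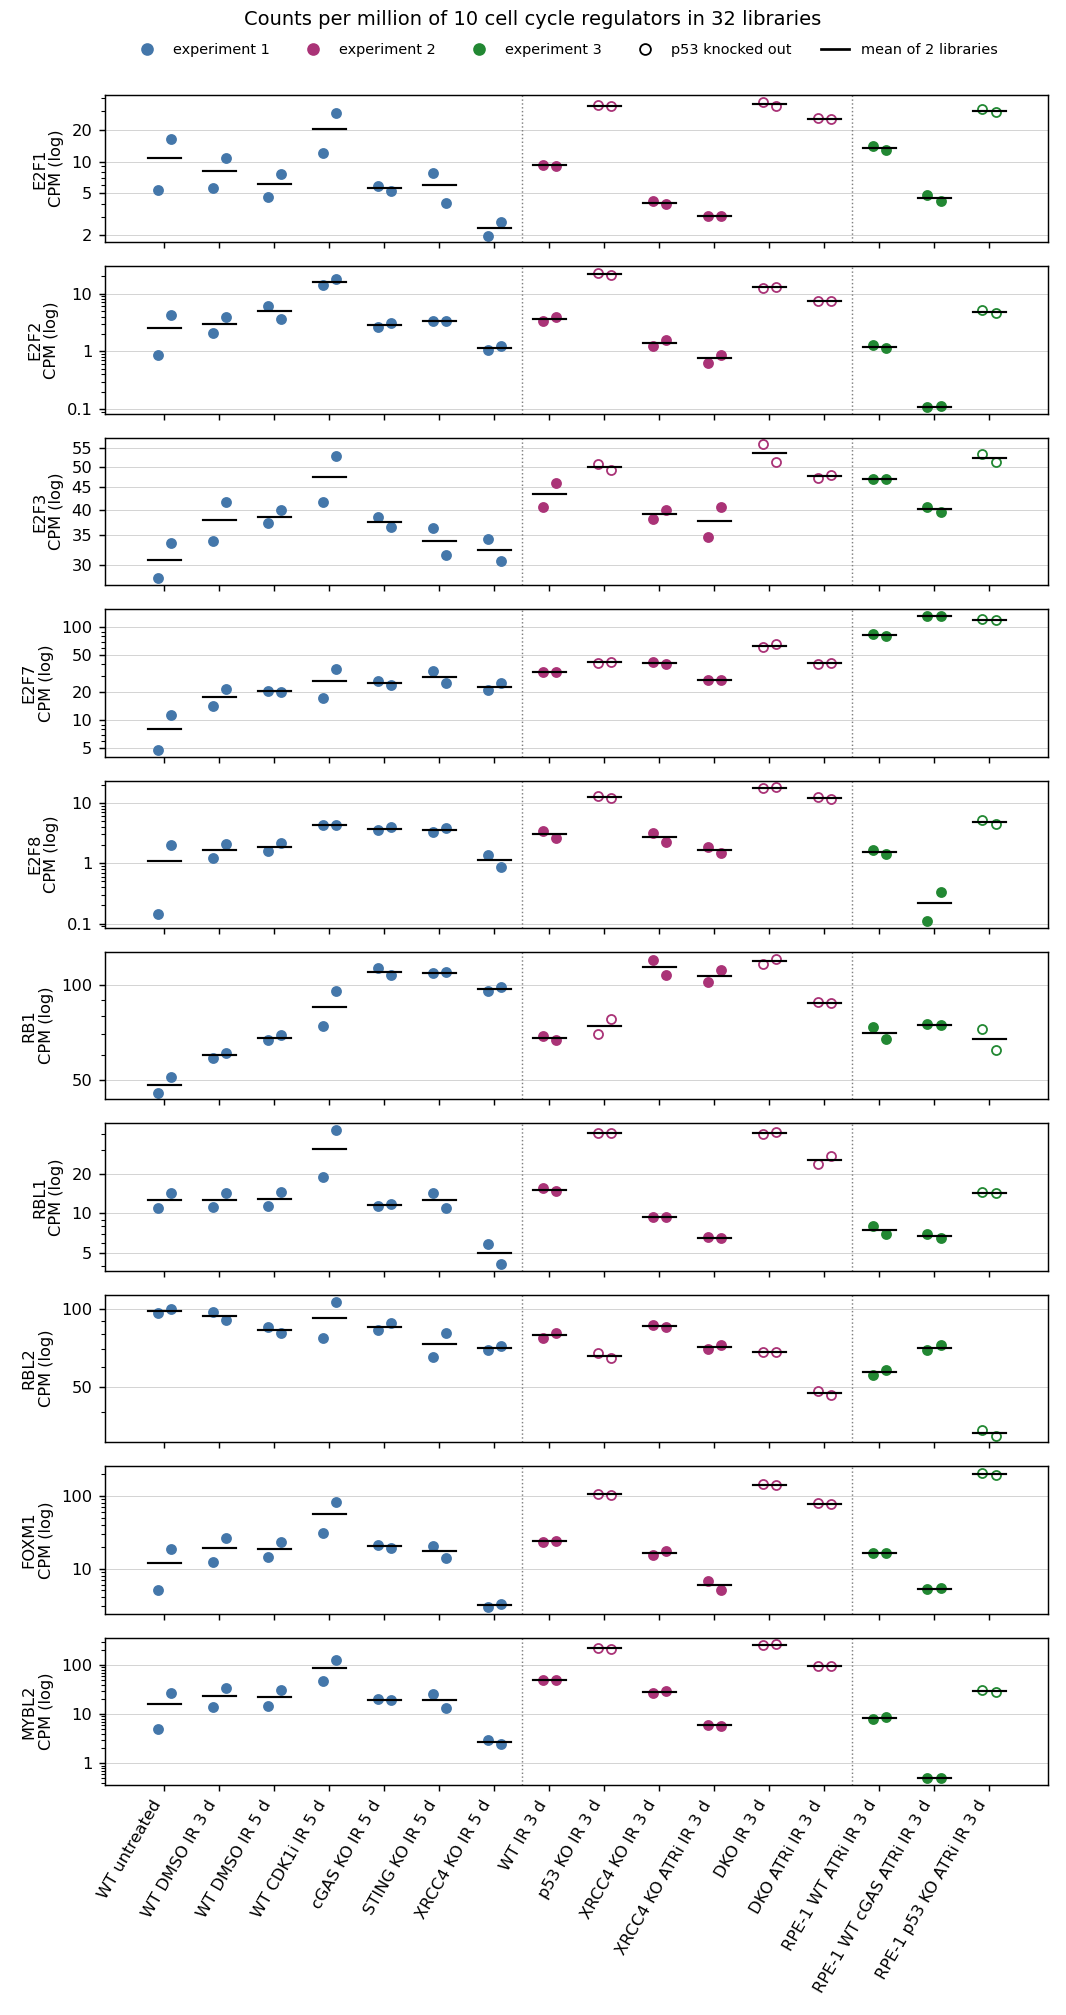
CPM (read counts relative to each library's TMM-scaled total, log axis) of each of the 10 genes in all 32 libraries, with groups along the horizontal axis, colours for the 3 experiments, open points for p53 KO lines and a black line for the mean of 2 libraries. In the p53 KO lines of the second experiment, FOXM1 sits at 77.6 to 145 CPM and MYBL2 at 96.2 to 262 CPM. In the other lines of that experiment they sit at 5.02 to 24.2 and 5.76 to 49.6 CPM. Over all its lines RB1 runs from 66.8 to 122 CPM and RBL2 from 46.6 to 86.7 CPM.

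On the FPKM scale, which allows genes to be compared, RB1 and RBL2 were the most abundant of the 10 in untreated WT cells, at 17.1 ± 0.937 and 26.7 ± 1.88 FPKM (SD, n = 2). E2F3 followed at 6.60 ± 0.635 FPKM, and E2F8 was lowest at 0.306 ± 0.368 FPKM. In the irradiated DKO, MYBL2 led with 103 ± 0.911 FPKM and FOXM1 followed with 54.5 ± 2.97 FPKM, above RB1 at 39.9 ± 2.74 FPKM. In RPE-1 WT cGAS cells, RB1 led at 29.3 ± 0.295 FPKM with E2F7 at 26.95 ± 1.02 FPKM, and E2F2 was lowest at 0.0220 FPKM in both libraries. Levels across the 3 experiments come from libraries that were fitted apart, so their order is a description.

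The order of the groups differed by gene. E2F1 was highest in p53 KO MCF10A (14.9 FPKM) and lowest in XRCC4 KO at 5 days (0.739 FPKM), and its top 3 groups were all p53 KO lines. RBL1 had the same ends, at 10.7 and 1.01 FPKM. FOXM1 ran from 85.8 FPKM in RPE-1 p53 KO to 1.30 FPKM in XRCC4 KO at 5 days. E2F7 was highest in RPE-1 WT cGAS (26.95 FPKM) and RPE-1 p53 KO (26.7 FPKM), whose libraries overlapped, and lowest in untreated MCF10A (1.38 FPKM). RBL2 was highest in untreated MCF10A (26.7 FPKM) and lowest in RPE-1 p53 KO (10.98 FPKM), with XRCC4 KO at 5 days next to lowest (14.4 FPKM). Of the 15 pairs of neighbours in each order, between 7 (FOXM1) and 12 (RBL1) had overlapping libraries. The FPKM of a gene divided by its CPM varied between libraries from 1.53-fold (E2F1) to 4.05-fold (E2F8), so tests below use counts.

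Loss of p53 in irradiated MCF10A went with higher RNA of all activating E2Fs, both atypical E2Fs, RBL1, FOXM1 and MYBL2, and with lower RBL2. A gene is said to rise or fall when its adjusted p from edgeR's quasi-likelihood test (Benjamini-Hochberg over all genes) was below 0.05. In p53 KO against WT at 3 days, 9 of the 10 were called, 8 higher and 1 lower, against 52.9% of all 16632 genes tested. Their median log2 fold change was 1.65, beside 0.012 for all genes. The 30 listed G1-S target genes were all higher (median 1.62), as were the 30 G2-M target genes (median 2.20), and the 20 listed p53 target genes were all lower (median -1.40). CDKN1A fell by 3.27 on the log2 scale, from 1327 and 1385 CPM in WT to 145 and 136 CPM in p53 KO.

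Among the activators, E2F2 changed most. E2F2 stood at 3.32 and 3.86 CPM in WT and at 22.6 and 20.9 CPM in p53 KO, a log2 change of 2.59 ± 0.12 (SE, edgeR adjusted p = 1.60e-15). E2F1 stood at 9.28 and 9.13 CPM in WT and at 34.1 and 33.8 CPM in p53 KO, a log2 change of 1.88 ± 0.09 (edgeR adjusted p = 1.55e-15). For both genes the 2 groups lay far apart and the libraries within a group nearly coincided. E2F3 stood at 40.6 and 45.9 CPM in WT and at 50.8 and 49.2 CPM in p53 KO. That change of 0.21 ± 0.07 on the log2 scale (edgeR adjusted p = 0.0193) was lost with DESeq2 (adjusted p = 0.118), with limma on FPKM (0.0525) and without the first WT library (log2 0.12, adjusted p = 0.286) or the first p53 KO library (0.119).

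The atypical repressors rose as well, E2F8 far more than E2F7. E2F8 had 3.46 and 2.63 CPM in WT and 13.2 and 11.9 CPM in p53 KO, a log2 change of 2.06 ± 0.16 (edgeR adjusted p = 1.94e-11). E2F7 had 33.4 and 32.8 CPM in WT and 41.0 and 42.8 CPM in p53 KO, a log2 change of 0.34 ± 0.07 (edgeR adjusted p = 0.000113). Neither gene's groups overlapped.

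The 3 pocket proteins moved in 3 different ways. RBL1 had 15.4 and 14.8 CPM in WT and 40.6 and 40.5 CPM in p53 KO, a rise of 1.43 ± 0.08 on the log2 scale (edgeR adjusted p = 5.18e-14). RBL2 went from 77.7 and 80.9 CPM to 67.5 and 65.0 CPM, and fell by 0.26 ± 0.05 (edgeR adjusted p = 0.00015). With limma on FPKM that fall was -0.07 (adjusted p = 0.513). RB1 had 69.0 and 66.8 CPM in WT and 69.9 and 78.3 CPM in p53 KO, with no call (log2 0.12 ± 0.06, edgeR adjusted p = 0.112). Scaled by library totals alone, RB1 was called higher (log2 0.22, adjusted p = 0.0112).

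FOXM1 and MYBL2 changed by nearly the same factor. FOXM1 had 23.5 and 24.2 CPM in WT and 107 and 104 CPM in p53 KO, and MYBL2 had 49.6 and 49.3 CPM in WT and 225 and 210 CPM in p53 KO. Their log2 fold changes were 2.14 ± 0.07 and 2.14 ± 0.05 (edgeR adjusted p = 2.40e-19 and 2.74e-21). Both lay close to the median of the G2-M target genes (2.20).

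**Figure D2:**
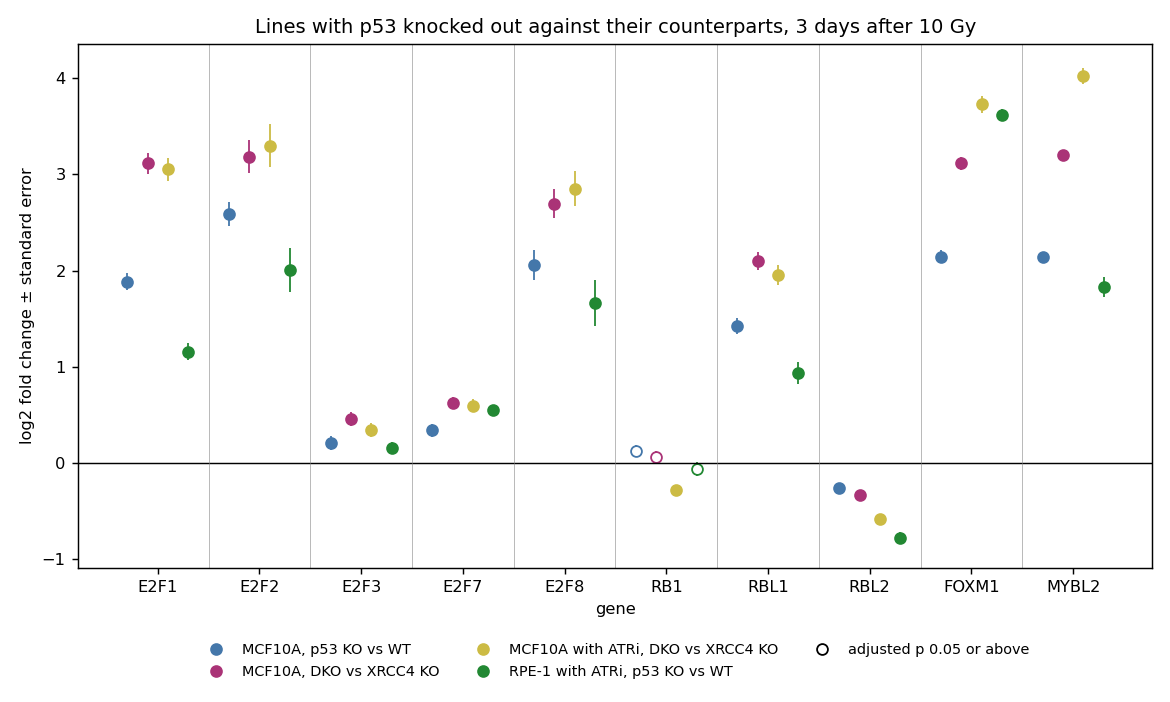
Log2 fold change (dots, ± SE) of each of the 10 genes for p53 loss in WT, XRCC4 KO and XRCC4 KO with ATRi of MCF10A and in RPE-1 with ATRi, with open dots where the edgeR adjusted p is 0.05 or more. E2F1, E2F2, E2F8, RBL1, FOXM1 and MYBL2 lie well above 0 in all 4 contrasts, E2F3 and E2F7 slightly above, RB1 near 0 and RBL2 below.

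The same 8 genes, counted over the 2 contrasts, rose and RBL2 fell when p53 was lost on top of XRCC4, in libraries that the first contrast does not share. In DKO against XRCC4 KO, 9 of 10 were called (64.9% of all genes). Log2 fold changes were 3.12 for E2F1, 3.19 for E2F2, 2.70 for E2F8, 2.10 for RBL1, 3.11 for FOXM1 and 3.20 for MYBL2. E2F3 (0.46) and E2F7 (0.62) rose less, RBL2 fell by 0.33, and RB1 was not called (0.06 ± 0.06, edgeR adjusted p = 0.351). The RBL2 fall was not called with library totals (-0.11, adjusted p = 0.064) or limma on FPKM (adjusted p = 0.263), and RB1 was called higher with library totals (0.28). All 30 G1-S (median 2.02) and all 30 G2-M target genes (median 3.04) were higher, and all 20 p53 target genes lower (median -1.91).

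Under ATRi, p53 loss called all 10 genes, against 71.8% of all genes. FOXM1 stood at 6.81 and 5.02 CPM in XRCC4 KO with ATRi and at 80.1 and 77.6 CPM in DKO with ATRi, a log2 change of 3.73 ± 0.09 (edgeR adjusted p = 3.57e-22). MYBL2 stood at 6.04 and 5.76 CPM against 96.6 and 96.2 CPM, a log2 change of 4.03 ± 0.08 (edgeR adjusted p = 1.51e-23). These were the 2 largest log2 fold changes of p53 loss among the 10 genes in MCF10A. E2F1 (3.05), E2F2 (3.30), E2F8 (2.85), RBL1 (1.95), E2F7 (0.59) and E2F3 (0.34) rose and RBL2 fell by 0.59. RB1 was called lower (-0.29, edgeR adjusted p = 0.000125), but its sign turned with library totals (0.11) and with limma on FPKM (0.20), and RBL2 was not called with limma on FPKM (adjusted p = 0.263).

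Over the second experiment as a whole, the 6 libraries with p53 and the 6 without it did not overlap for E2F1 (3.05 to 9.28 against 25.1 to 37.0 CPM), E2F2, E2F8, RBL1, FOXM1 and MYBL2. Those of E2F3 (34.7 to 45.9 against 47.2 to 56.1 CPM) and RBL2 (70.0 to 86.7 against 46.6 to 68.5 CPM) came close without overlapping. E2F7 (27.1 to 42.3 against 40.7 to 66.4 CPM) and RB1 (66.8 to 120 against 69.9 to 122 CPM) overlapped. Each side pools groups that differ in XRCC4 and in ATRi, so these ranges are a description. The share of all genes that separate in this way was not counted. The p53 contrasts called 52.9% of all genes in WT, 64.9% in XRCC4 KO and 71.8% in XRCC4 KO with ATRi.

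XRCC4 loss in cells with p53 went with lower E2F1, E2F2, RBL1, FOXM1 and MYBL2 and with higher RB1 and E2F7. In XRCC4 KO against WT at 3 days, 7 of 10 genes were called, 5 lower and 2 higher, against 56.1% of all genes. E2F1 went from 9.28 and 9.13 CPM to 4.20 and 3.93 CPM, and fell by 1.17 ± 0.15 on the log2 scale (edgeR adjusted p = 1.44e-07). E2F2 went from 3.32 and 3.86 CPM to 1.25 and 1.55 CPM, and fell by 1.37 ± 0.24 (edgeR adjusted p = 2.56e-05). Both activators were lower in each XRCC4 KO library than in either WT library. MYBL2 fell by 0.80 ± 0.07, RBL1 by 0.68 ± 0.11 and FOXM1 by 0.53 ± 0.09 (edgeR adjusted p = 1.98e-10, 9.39e-06 and 2.36e-05). The RBL1 fall was not called with limma on FPKM (adjusted p = 0.104). Neither E2F8 (-0.13 ± 0.23) nor RBL2 (0.12 ± 0.05) nor E2F3 (-0.15 ± 0.08) was called, with E2F3 called lower with library totals (-0.34). Of the target genes, 18 of 30 G1-S genes were lower and 4 higher, 28 of 30 G2-M genes were lower, and 17 of 20 p53 target genes were higher and 1 lower (median 0.42).

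RB1 and E2F7 rose with XRCC4 loss, though the RB1 rise was not limited to XRCC4 KO lines. Against WT with DMSO at 5 days, RB1 also rose in cGAS KO (0.70) and in STING KO (0.69). RB1 had 69.0 and 66.8 CPM in WT and 120 and 108 CPM in XRCC4 KO, a log2 change of 0.75 ± 0.06 (edgeR adjusted p = 1.21e-10). E2F7 had 33.4 and 32.8 CPM in WT and 42.3 and 40.4 CPM in XRCC4 KO, a log2 change of 0.32 ± 0.07 (edgeR adjusted p = 0.000254). The E2F7 call was lost with library totals (0.14, adjusted p = 0.0946) and with limma on FPKM (0.06, adjusted p = 0.706), while the median of all genes moved by -0.187 with library totals. A partner of E2F factors, TFDP1, rose by 0.68 in the same contrast.

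In cells without p53, neither E2F1 nor RBL1 was called on XRCC4 loss. In DKO against p53 KO, 6 of 10 genes were called (49.7% of all genes), namely E2F7 (0.60), E2F8 (0.50), FOXM1 (0.44), MYBL2 (0.26) and RB1 (0.69) higher and E2F2 (-0.78) lower. E2F1 had 34.1 and 33.8 CPM in p53 KO and 37.0 and 33.6 CPM in DKO, and these overlapped (log2 0.06 ± 0.07, edgeR adjusted p = 0.502). E2F2 had 22.6 and 20.9 CPM in p53 KO and 12.7 and 12.8 CPM in DKO, so it was the 1 activator that was lower (log2 -0.78 ± 0.09, edgeR adjusted p = 6.66e-08). RB1 had 69.9 and 78.3 CPM against 117 and 122 CPM, a rise of 0.69 ± 0.06 beside 0.75 in cells with p53. The calls of E2F8, FOXM1 and MYBL2 were lost with limma on FPKM (adjusted p = 0.507, 0.08 and 0.0745).

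The difference between these 2 effects of XRCC4 loss was tested as an interaction, which called 7 of 10 genes, all higher, against 43.7% of all genes. It was 1.23 ± 0.16 for E2F1, 1.06 ± 0.08 for MYBL2, 0.97 ± 0.11 for FOXM1 and 0.67 ± 0.13 for RBL1 (edgeR adjusted p = 6.55e-07, 5.71e-11, 3.19e-08 and 0.000124). RBL1 was not called with limma on FPKM (adjusted p = 0.44). Those of E2F8 (0.63), E2F7 (0.28) and E2F3 (0.25) were each lost with DESeq2 (adjusted p = 0.143, 0.0865 and 0.155). For E2F2 the difference was 0.59 ± 0.26 (edgeR adjusted p = 0.0717), and for RB1 -0.06 ± 0.09, so for RB1 a difference between the 2 effects of XRCC4 loss was not detected.

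With ATRi, MYBL2 and FOXM1 had the largest falls of the 10 genes, in XRCC4 KO as in DKO cells. In XRCC4 KO cells, ATRi called 5 of 10 genes, all lower, against 17% of all genes. MYBL2 went from 26.8 and 30.1 CPM to 6.04 and 5.76 CPM, and fell by 2.26 ± 0.11 on the log2 scale (edgeR adjusted p = 2.99e-14). FOXM1 went from 15.4 and 17.7 CPM to 6.81 and 5.02 CPM, and fell by 1.48 ± 0.13 (edgeR adjusted p = 1.77e-09). The libraries of the 2 groups lay well apart for both genes. E2F7 fell by 0.60, RBL1 by 0.52 and RBL2 by 0.27 (edgeR adjusted p = 5.25e-07, 0.0069 and 0.000475), of which RBL1 and RBL2 were not called with limma on FPKM (adjusted p = 0.508 and 0.379). E2F2 (-0.88 ± 0.35, edgeR adjusted p = 0.0916) and E2F8 (-0.72 ± 0.27, edgeR adjusted p = 0.0651) rest on 10 to 49 counts per library and were not called. E2F1 (-0.41), E2F3 (-0.06) and RB1 (-0.09) were not called either. Of the target genes, 28 of 30 G1-S genes (median -0.75) and 29 of 30 G2-M genes (median -1.41) were lower.

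In the DKO, ATRi called all 10 genes lower, against 58.5% of all genes. MYBL2 went from 260 and 262 CPM to 96.6 and 96.2 CPM and fell by 1.44 ± 0.05 (edgeR adjusted p = 5.83e-19). FOXM1 went from 145 and 142 CPM to 80.1 and 77.6 CPM and fell by 0.86 ± 0.05 (edgeR adjusted p = 2.06e-13). E2F2 (-0.77), RBL1 (-0.67), E2F7 (-0.63), E2F8 (-0.56), RBL2 (-0.52), E2F1 (-0.47), RB1 (-0.44) and E2F3 (-0.18) followed. With limma on FPKM, E2F2 (0.02) and E2F3 (0.02) turned sign and E2F1, E2F8 and RBL2 were not called (adjusted p = 0.0606, 0.156 and 0.183), and E2F3 also turned with library totals (0.02) and lost its call with DESeq2 (adjusted p = 0.195). All 30 G1-S (median -0.73) and all 30 G2-M target genes (median -1.12) were lower. CDKN1A rose by 0.71 in this contrast.

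The ATRi effect differed with p53 for 4 of 10 genes, against 34% of all genes. The difference, DKO minus XRCC4 KO, was 0.82 ± 0.12 for MYBL2 and 0.61 ± 0.14 for FOXM1 (edgeR adjusted p = 7.23e-06 and 0.0011), so the fall of both was smaller on the log2 scale without p53. It was -0.35 ± 0.08 for RB1 and -0.25 ± 0.07 for RBL2 (edgeR adjusted p = 0.00166 and 0.00941). The RB1 and RBL2 differences were not called with library totals (-0.17 and -0.08, adjusted p = 0.144 and 0.453), and with limma on FPKM RBL2 turned to 0.01, while RB1 and FOXM1 were not called (adjusted p = 0.951 and 0.279). RBL2 was not called with DESeq2 either (adjusted p = 0.0938). The MYBL2 call held in each of these settings.

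**Figure D3:**
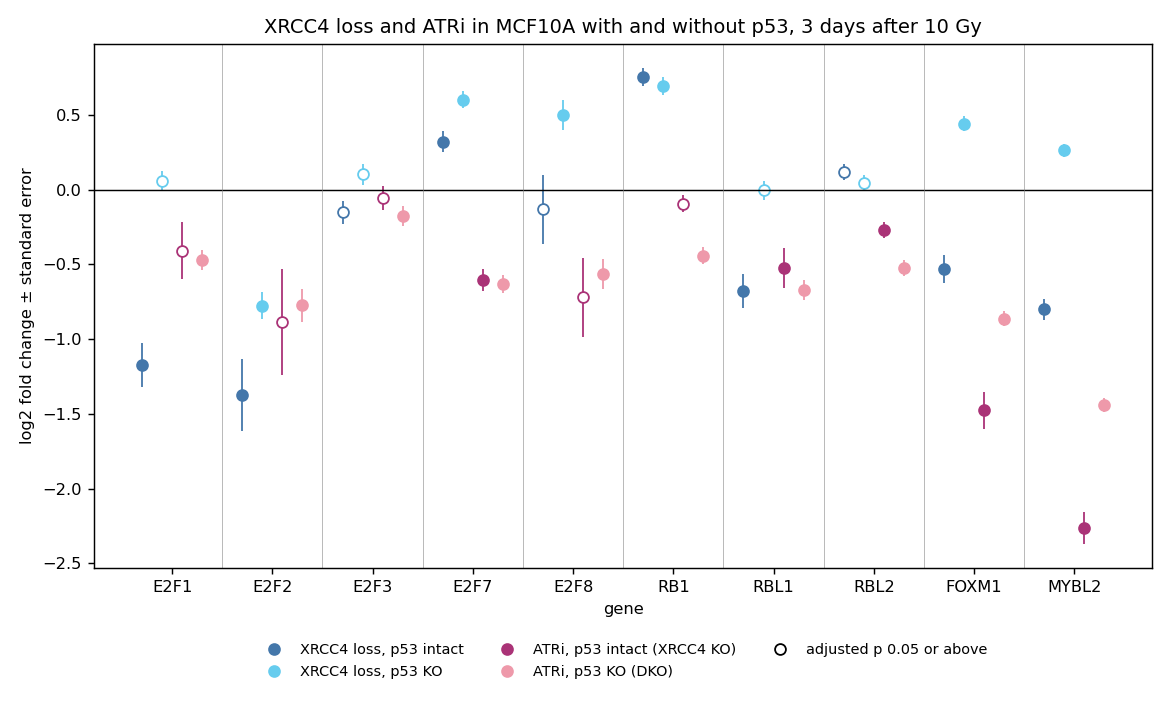
Log2 fold change (dots, ± SE) of the 10 genes for XRCC4 loss in cells with and without p53 and for ATRi in XRCC4 KO and DKO cells, with open dots where the edgeR adjusted p is 0.05 or more. For XRCC4 loss in cells with and without p53, E2F1 lies at -1.17 and 0.06 and RB1 at 0.75 and 0.69. MYBL2 is lowest under ATRi, at -2.26 and -1.44.

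In RPE-1 cells irradiated with ATRi, p53 loss went with a rise of the same 8 genes as in the 3 MCF10A contrasts. RBL2 fell, and FOXM1 changed most. The test called 9 of the 10, 8 higher and 1 lower, against 66.7% of all 15469 genes tested. FOXM1 stood at 16.3 and 16.5 CPM in WT and at 208 and 196 CPM in p53 KO, a log2 change of 3.62 ± 0.06 (edgeR adjusted p = 2.08e-18). MYBL2 stood at 8.07 and 8.83 CPM and at 31.3 and 28.9 CPM, a log2 change of 1.83 ± 0.10 (edgeR adjusted p = 1.46e-11). FOXM1 exceeded MYBL2 in RPE-1 p53 KO cells (85.8 against 12.9 FPKM), as it did in RPE-1 WT (5.39 against 3.02 FPKM). MYBL2 exceeded FOXM1 in MCF10A p53 KO cells without ATRi (90.2 against 44.95 FPKM). So it did in MCF10A WT of the second experiment (18.9 against 8.54 FPKM). With ATRi, MYBL2 and FOXM1 stood at 43.6 and 35.6 FPKM in DKO and at 1.96 and 1.98 FPKM in XRCC4 KO. E2F1 had 14.2 and 12.95 CPM in WT and 31.2 and 29.2 CPM in p53 KO, a rise of 1.16 ± 0.09 (edgeR adjusted p = 2.57e-09). E2F2 (2.01), E2F8 (1.66), RBL1 (0.93) and E2F7 (0.55) rose too.

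RBL2, the pocket protein of resting cells, was lower in RPE-1 p53 KO. It had 55.9 and 58.5 CPM in WT and 34.2 and 32.6 CPM in p53 KO, and fell by 0.78 ± 0.06 (edgeR adjusted p = 3.42e-09). RB1 was not called (-0.06, edgeR adjusted p = 0.441), and with library totals it was called higher (0.18, adjusted p = 0.0244). E2F3 (0.16, edgeR adjusted p = 0.0283) lost its call with DESeq2 (adjusted p = 0.228). Of the target genes, 26 of 30 G1-S genes were higher (median 0.87), 30 of 30 G2-M genes were higher (median 2.09) and 17 of 20 p53 target genes were lower and 2 higher (median -1.83). CDKN1A fell by 3.41. Without the second WT library, the one with 100 MB21D1 counts, 8 of the 10 genes were called, and E2F3 was not (log2 0.14, adjusted p = 0.14). Whether the size of these changes differs between the lines was not tested.

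The RPE-1 cells labelled WT cGAS had the lowest mean FPKM of E2F2, E2F8 and MYBL2 among the 16 groups. Against RPE-1 WT, 8 of 10 genes were called, 6 lower and 2 higher, with 59.8% of all genes called. MYBL2 had 113 and 139 counts in WT and 9 in each WT cGAS library, that is 8.07 and 8.83 CPM against 0.492 and 0.505 CPM, a log2 change of -4.07 ± 0.24 (edgeR adjusted p = 4.94e-11). E2F2 had 36 counts in the WT libraries together and 4 in WT cGAS, a ratio of 10.9 in CPM (95% exact interval 3.92 to 42.2, counting error only). E2F8 had 45 and 8 counts, a ratio of 6.83 (3.19 to 16.8). FOXM1 fell from 16.3 and 16.5 CPM to 5.20 and 5.39 CPM (log2 -1.63 ± 0.11, edgeR adjusted p = 2.30e-10), and E2F1 from 14.2 and 12.95 CPM to 4.81 and 4.21 CPM (-1.58 ± 0.13, edgeR adjusted p = 7.22e-09). E2F3 was called lower (-0.23), but not with library totals (-0.07, adjusted p = 0.332).

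E2F7 moved against its relative E2F8 in these cells. It had 84.5 and 80.9 CPM in WT and 133 and 132 CPM in WT cGAS, a rise of 0.68 ± 0.05 (edgeR adjusted p = 6.92e-10). RBL2 rose by 0.31, from 55.9 and 58.5 CPM to 69.5 and 72.8 CPM (edgeR adjusted p = 0.000124), and RBL1 (-0.14) and RB1 (0.09) were not called, though RB1 was with library totals (0.25, adjusted p = 0.0047). The listed p53 target genes were higher for 17 of 20 and lower for 2 (median 0.77), CDKN1A rose by 0.79, and 26 of 30 G1-S (median -1.02) and 29 of 30 G2-M genes (median -2.12) were lower. Without the second RPE-1 WT library the number of the 10 genes called was again 8.

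The first experiment had the widest spread between libraries, and its 4 WT groups shared part of that spread. In each of these groups the second library was the higher one for E2F1, FOXM1 and MYBL2. A fit with the replicate number as a block in the WT groups is therefore given beside the fit without it, where it changes a call. At 3 days after irradiation with DMSO, edgeR called 0 of 10 genes against untreated WT, with 6.52% of all genes called, while DESeq2 also called 0, and 2 genes had an unadjusted edgeR p below 0.05. E2F1 had 5.34 and 16.5 CPM in untreated WT and 5.64 and 10.8 CPM at 3 days, and MYBL2 had 5.05 and 26.9 CPM and 13.7 and 33.4 CPM. The 2 untreated libraries thus lay further apart than the groups for both genes, while MYBL2 was higher at 3 days in both same-numbered pairs. With the block 1 of 10 genes was called (12.3% of all genes), namely E2F7 higher (log2 1.21 ± 0.29, edgeR adjusted p = 0.0258), and FOXM1 (0.85, edgeR adjusted p = 0.0595) and MYBL2 (0.76, edgeR adjusted p = 0.167) were not. Of the p53 target genes 12 of 20 were higher at that time, and CDKN1A rose by 2.54.

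At 5 days 2 of 10 genes were called against untreated WT, both higher, with 29.3% of all genes called. E2F7 had 4.83 and 11.4 CPM untreated and 20.9 and 20.2 CPM at 5 days, a log2 change of 1.37 ± 0.42 (edgeR adjusted p = 0.0339). RB1 had 45.4 and 50.9 CPM untreated and 66.8 and 69.4 CPM at 5 days, a log2 change of 0.50 ± 0.12 (edgeR adjusted p = 0.0108). Both groups were separate, but the E2F7 call was lost without the first untreated library (0.84, adjusted p = 0.188) or with no filter on low counts (adjusted p = 0.112), and the RB1 call without it (adjusted p = 0.0622) or with limma on FPKM (adjusted p = 0.451). The E2F7 call was also lost without either 5-day library (adjusted p = 0.124 and 0.0874), and the RB1 call without the first of them (0.0504). E2F8 had 2 and 20 counts in the untreated libraries, and was called at 5 days (3.59, adjusted p = 0.00761) when the second was left out, as was E2F2 (2.46, adjusted p = 0.0111). E2F8 was then called at 3 days as well (3.25, adjusted p = 0.038). E2F1 (-0.78 ± 0.59), FOXM1 (0.72 ± 0.64) and MYBL2 (0.54 ± 0.76) were not called. With the block 4 of 10 genes were called, all higher (36.9% of all genes). FOXM1 joined E2F7 and RB1 in that fit, from 4.98 to 14.3 CPM in the first pair and from 18.5 to 23.2 CPM in the second (log2 0.85 ± 0.26, edgeR adjusted p = 0.0246), as did E2F3 (0.33, edgeR adjusted p = 0.0385). MYBL2 was not called (0.72, edgeR adjusted p = 0.115). From 3 to 5 days 0 of 10 genes were called by edgeR and 0 by DESeq2, 0 had an unadjusted edgeR p below 0.05, and edgeR called 0.263% of all genes.

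CDK1i went with higher E2F2 and RBL1 at 5 days, 2 of 10 genes called against 12.1% of all genes. E2F2 had 6.18 and 3.68 CPM with DMSO and 14.3 and 17.6 CPM with CDK1i (log2 1.70 ± 0.42, edgeR adjusted p = 0.0294). RBL1 had 11.5 and 14.4 CPM with DMSO and 18.8 and 42.5 CPM with CDK1i (log2 1.24 ± 0.33, edgeR adjusted p = 0.039). All 10 log2 fold changes were positive. The 2 CDK1i libraries differed more than 1.5-fold for RBL1, FOXM1 (30.5 and 82.4 CPM) and MYBL2 (47.0 and 125 CPM). They also did for E2F1 (12.1 and 28.8 CPM) and E2F7 (17.4 and 35.7 CPM). E2F1 (1.72, edgeR adjusted p = 0.076), FOXM1 (1.58, edgeR adjusted p = 0.114) and MYBL2 (1.92, edgeR adjusted p = 0.114) were not called, but DESeq2 called E2F1 (adjusted p = 0.0262) and FOXM1 (adjusted p = 0.0367). With the replicate block in the WT groups 6 of 10 genes were called, all higher (21.7% of all genes). These were E2F2, RBL1, E2F1 (log2 1.68 ± 0.26, edgeR adjusted p = 0.00195), FOXM1 (1.47 ± 0.23, edgeR adjusted p = 0.00231), MYBL2 (1.87 ± 0.31, edgeR adjusted p = 0.00387) and RB1 (0.31 ± 0.10, edgeR adjusted p = 0.039). FOXM1 and MYBL2 were higher with CDK1i in both same-numbered pairs. E2F2 and RBL1 lost their calls without the first DMSO library (adjusted p = 0.073 and 0.196), without the second (0.154 and 0.098) and without the second CDK1i library (0.106 and 0.221, RBL1 log2 0.57), and without the first CDK1i library 5 genes were called. Of the target genes 7 of 30 G1-S and 4 of 30 G2-M genes were higher, and with the block 30 of 30 and 29 of 30. CDKN1A fell by 1.03.

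In cGAS KO and in STING KO at 5 days, RB1 was the 1 gene of 10 that was called, against 13.5% and 15.2% of all genes. RB1 had 66.8 and 69.4 CPM in WT with DMSO, 114 and 108 CPM in cGAS KO and 109 and 110 CPM in STING KO. These are log2 fold changes of 0.70 ± 0.12 and 0.69 ± 0.12 (edgeR adjusted p = 0.00427 and 0.00432) against the same WT libraries. Neither was called with limma on FPKM (adjusted p = 0.146 and 0.0819), and the cGAS KO call was lost without its first library (adjusted p = 0.0524).

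In XRCC4 KO at 5 days, 5 of 10 genes were called, 4 lower and RB1 higher, against 24.7% of all genes. FOXM1 had 14.3 and 23.2 CPM in WT and 2.95 and 3.28 CPM in XRCC4 KO (log2 -2.59 ± 0.74, edgeR adjusted p = 0.033). MYBL2 had 14.6 and 30.5 CPM and 2.95 and 2.51 CPM (log2 -3.04 ± 0.92, edgeR adjusted p = 0.0396). E2F2 fell by 2.09 ± 0.60 and RBL1 by 1.36 ± 0.38 (edgeR adjusted p = 0.0293 and 0.0273). The libraries of the 2 groups did not overlap for any of the 10 genes, also where the change was small, as for E2F7 (0.17, edgeR adjusted p = 0.782). The share of all genes without overlap in this comparison was not counted. RB1 rose by 0.51 ± 0.12 (edgeR adjusted p = 0.0104), from 66.8 and 69.4 CPM to 95.7 and 98.6 CPM. In cGAS KO and STING KO it rose by 0.70 and 0.69 against the same WT libraries. The RB1 call in XRCC4 KO was lost with library totals (0.35, adjusted p = 0.0671) and with limma on FPKM (0.26, adjusted p = 0.383). E2F1 had 4.60 and 7.71 CPM against 1.99 and 2.70 CPM and was not called (-1.40 ± 0.72, edgeR adjusted p = 0.18). With the block in the WT groups it fell by 1.32 ± 0.35 (edgeR adjusted p = 0.0144), and 6 of 10 genes were called (32.9% of all genes). With no filter on low counts 1 of the 10 genes was called. Without the first or the second WT library 0 and 2 were called, and without the first or the second XRCC4 KO library 1 and 0. Of the target genes 8 of 30 G1-S and 22 of 30 G2-M genes were lower, and 24 and 28 with the block. The XRCC4 KO comparison at 3 days, in other libraries, gave the same direction for each of the 5 genes called without the block. How many of all genes kept their direction was not counted, and deletion and clone cannot be told apart at either time.

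**Figure D4:**
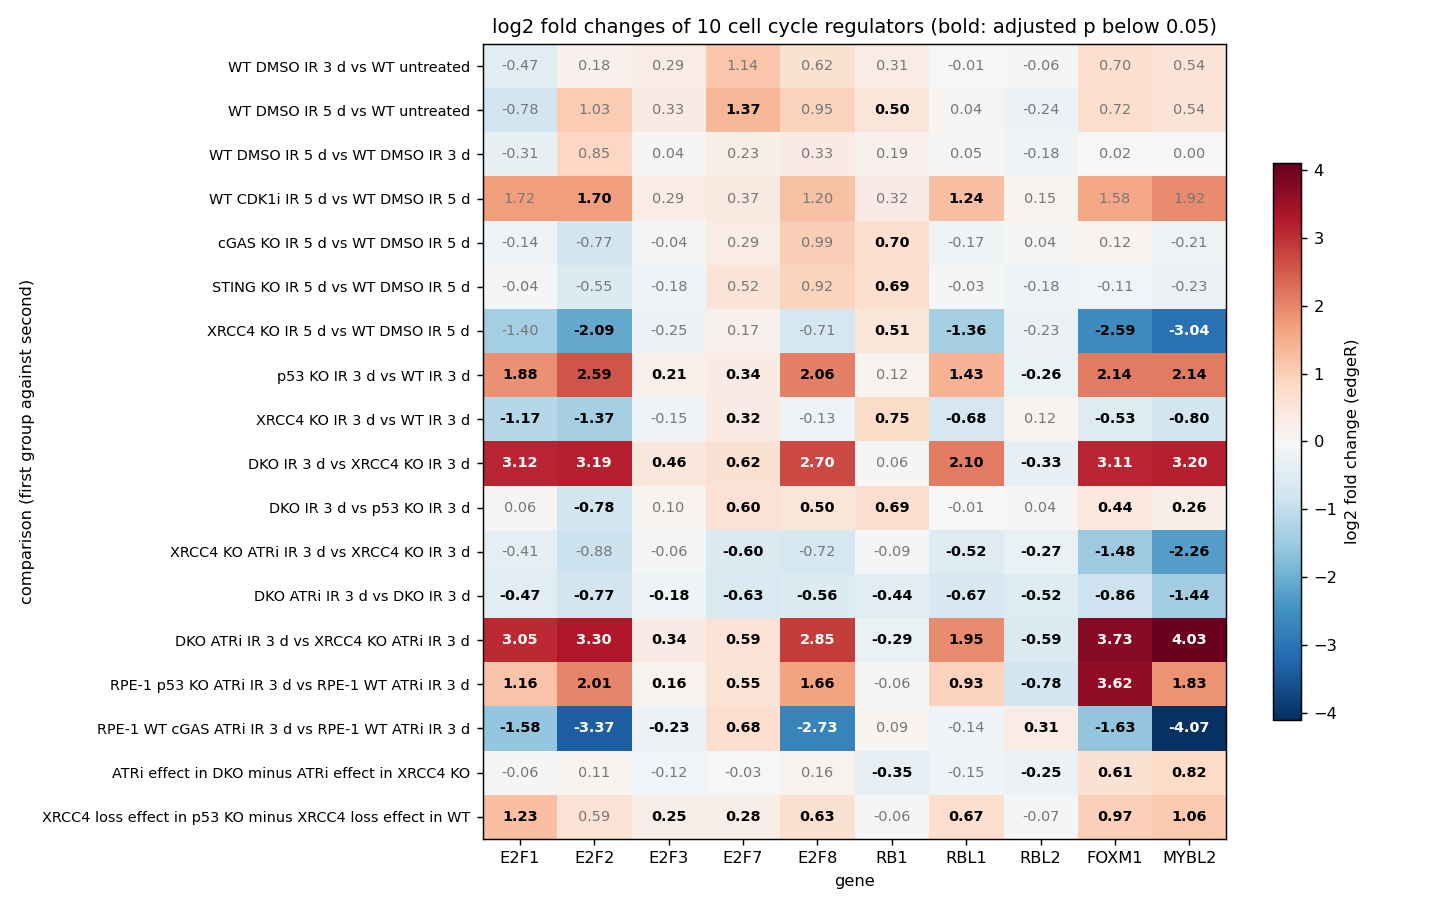
Log2 fold change of each of the 10 genes (columns) in 18 comparisons, the last of them the 2 interactions (rows), as colour and number, bold where the edgeR adjusted p is below 0.05. The p53 rows hold the highest values, up to 4.03 for MYBL2, and the RPE-1 WT cGAS row holds the lowest, -4.07 for the same gene. RB1, RBL2 and E2F3 keep within 1 of 0 throughout.

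The balance of the pocket proteins separated p53 KO lines from most others. The ratio of RBL1 to RBL2 in FPKM was 0.344 to 0.543 in the 6 MCF10A libraries of p53 KO lines and 0.0544 to 0.344 in the other 20, the highest of which came from 1 CDK1i library and met the lowest of the former. In RPE-1 it was 0.352 and 0.407 in p53 KO and 0.0700 to 0.114 in the other 4 libraries. On counts, RBL1 and RBL2 were called in opposite directions in these contrasts, so the ratio restates their changes. In FPKM, limma did not call the RBL2 fall in the MCF10A contrasts. From WT to p53 KO of the second experiment, mean RBL1 went from 3.04 to 10.7 FPKM and mean RBL2 from 22.3 to 21.2 FPKM. The ratio in MCF10A thus mostly restates RBL1.

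The balance of repressor E2F7 to activator E2F1 did not follow p53 alone. It was 0.419 and 0.288 in untreated MCF10A and 2.08 and 1.44 at 5 days after irradiation. It was highest in MCF10A in XRCC4 KO, with 4.91 and 4.53 at 5 days and 4.69 and 4.86 at 3 days, and lower in p53 KO at 0.622 and 0.612. In RPE-1 it was 2.76 and 2.85 in WT, 13.3 and 14.4 in WT cGAS and 1.85 and 2.06 in p53 KO.

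**Figure D5:**
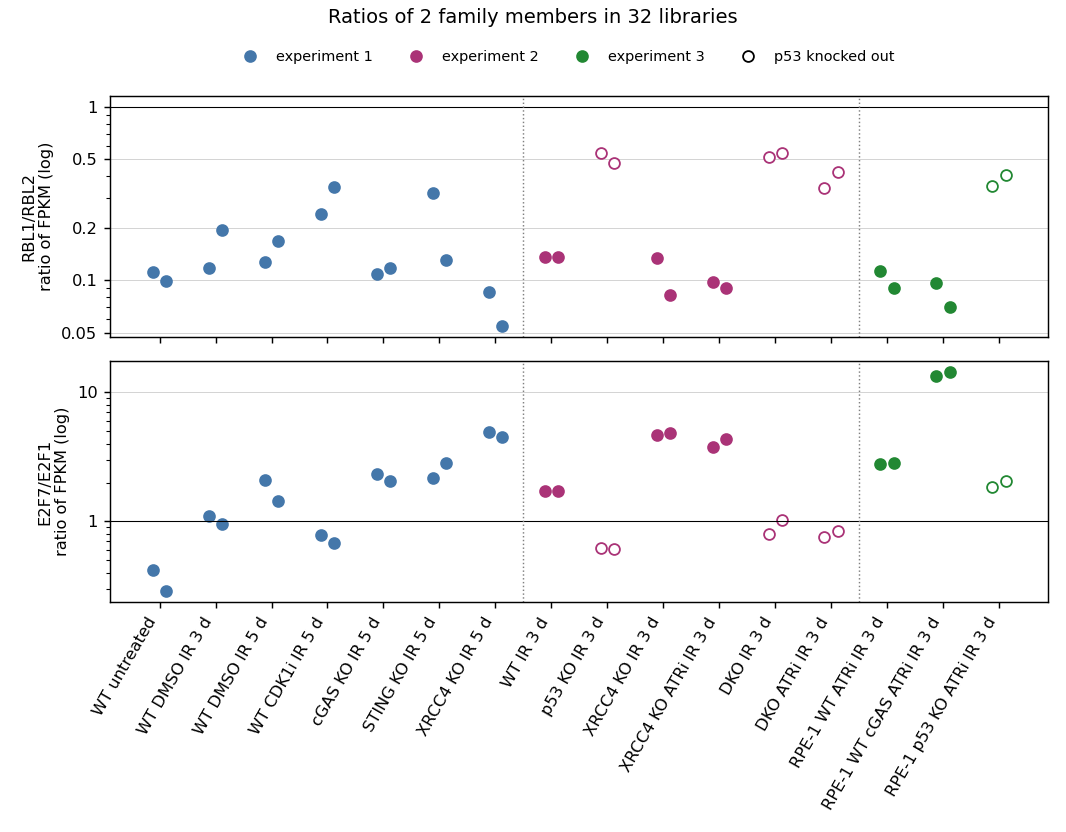
Ratio of RBL1 to RBL2 and of E2F7 to E2F1 in FPKM in each library (log axis), by group. RBL1 to RBL2 is highest in the p53 KO lines of MCF10A, at 0.344 to 0.543, and E2F7 to E2F1 is highest in RPE-1 WT cGAS, at 13.3 and 14.4.

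Across the 16 group means, centred on each experiment, the 10 genes fell into a tight set and 3 that stood apart. Pearson's r was 0.962 between E2F2 and MYBL2, 0.960 between FOXM1 and MYBL2 and 0.952 between E2F1 and RBL1. E2F7 tracked RB1 (r = 0.701) more than E2F1 (r = 0.145), and RBL2 ran against E2F8 (r = -0.659) and FOXM1 (r = -0.530). These are descriptions over 16 points that share libraries and genotypes.

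The 3 genes most alike to each of the 10 were found by the same measure among 13522 genes. E2F1 was closest to MCM2 (r = 0.989), TMPO and MCM5, of which MCM2 and MCM5 encode subunits of the replicative helicase. MYBL2 was closest to DTL (r = 0.997), EXO1 and PKMYT1, FOXM1 to SPAG5 (r = 0.990), TTK and CDC20, and RBL1 to TACC3 (r = 0.987), ESPL1 and HMGN2. E2F2 was closest to FANCD2 (r = 0.976), KIF11 and GTSE1, E2F8 to SKA3 (r = 0.974), CDCA8 and ESCO2, and E2F3 to SLF1 (r = 0.945), C16orf59 and KIF24. E2F7 was closest to MGME1 (r = 0.907), POLR2K and AL359513.1, RB1 to MICU2 (r = 0.937), TNPO2 and DIAPH1, and RBL2 to ATG16L2 (r = 0.951), ATG7 and DCBLD1. RB1, RBL2 and E2F7 thus had no listed cell cycle target among their nearest genes.

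Other parts of the pathway, listed for their roles, moved with the 10 genes in part. Of the 5 other E2F and DP factors (E2F4, E2F5, E2F6, TFDP1, TFDP2), p53 KO against WT called TFDP1 higher (0.45) and TFDP2 lower (-0.20), and E2F4, the main partner of RBL1 and RBL2, was not called (0.04, edgeR adjusted p = 0.591). Of 6 MuvB subunits and relatives, 5 were higher and LIN37 lower (-0.59). LIN9 (1.23), LIN54 (1.18) and MYBL1 (1.36) were among those that rose. Of 16 upstream genes of the CDK-RB axis tested, 11 were higher and 4, CDKN1A among them, lower. In RPE-1, p53 KO called 5 of the 6 MuvB genes higher, but MYBL1 lower (-1.57).

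The genes lie on 7 chromosomes of hg19, the build of the count table. E2F1 (ENSG00000101412) spans chr20:32263489-32274210, RBL1 (ENSG00000080839) chr20:35624752-35725581 and MYBL2 (ENSG00000101057) chr20:42295659-42345136. E2F2 (ENSG00000007968) spans chr1:23832922-23857712, E2F3 (ENSG00000112242) chr6:20402137-20493946, and E2F8 (ENSG00000129173) chr11:19203577-19302973. E2F7 (ENSG00000165891) spans chr12:77415027-77459360, RB1 (ENSG00000139687) chr13:48877887-49056122 and RBL2 (ENSG00000103479) chr16:53467889-53538323. The interval given for FOXM1 (ENSG00000111206), chr12:2055220-3050306, is shared with 31 other genes and those of E2F3, E2F8, RB1, RBL1 and RBL2 with 3 to 5, so these intervals may be wider than the genes.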

How the data were processed

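Poly-A selected RNA of 32 libraries was measured. The first deposited table holds estimated counts per gene and library, not normalised by the authors. The second holds the authors' FPKM values, scaled for gene length and depth. Build hg19 and the tools STAR, Cuffnorm, DESeq2, FastQC and bcl2fastq stand in the submitters' processing notes with no versions or roles. The annotation and the use of strand in counting are not given in the sources used here, so overlapping and antisense transcripts may share counts.

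Estimated counts were rounded. Within each of the 3 experiments, all libraries were fitted together by edgeR 4.0.16 (R 4.3.3) with TMM factors, filterByExpr by group and group as the only term, using a robust quasi-likelihood F test, two-sided. This tested 15190, 16632 and 15469 genes with 7, 6 and 3 residual degrees of freedom, and all 10 genes passed the filter in each. Benjamini-Hochberg adjustment covered every gene tested, and calls were made at an adjusted p below 0.05. After ±, log2 changes carry their standard error (log2 change over the square root of F) and levels the SD of 2 libraries. Log2 CPM used a prior count of 2. The fit was tested on simulated data. Intervals and floors cover counting error only.

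Named genes were the 10 members, 6 anchor cell cycle genes, members of the short pathway lists, and the 3 genes most alike to each member. The members and lists were chosen with earlier results of these data known. Alternatives were DESeq2 1.42.0, other scaling, no filter, a replicate block, the compared groups alone, limma 3.58.1 on log2(FPKM + 1) or log2(FPKM + 0.1), each library left out, and, added after seeing the data, an earlier form of the edgeR fit and a replicate block in the WT groups of the first experiment. In all 6 pairs of these 4 groups, deviations of same-numbered libraries correlated over genes (0.245 to 0.439), against -0.265 to 0.116 in the 15 pairs with a knockout group. This pairing comes from the data, and the labels give no shared batch. The level of 1 targeted gene is not reported here.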

Additional observations from a re-analysis of the deposited data

Results flagged for a closer look

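In MCF10A cells 3 days after irradiation, the size of an effect differed between cells with and without p53 by the interaction test for 7 of the 10 genes on XRCC4 loss (43.7% of all genes) and for 4 of the 10 on ATRi (34% of all genes). The effect of XRCC4 loss was higher in cells without p53 by 1.23 (log2) for E2F1, 1.06 for MYBL2, 0.97 for FOXM1, 0.67 for RBL1, 0.63 for E2F8, 0.28 for E2F7 and 0.25 for E2F3. In every library of these 4 groups E2F1 stood at 3.93 to 9.28 CPM with p53 and at 33.6 to 37.0 CPM without it. Its WT and XRCC4 KO libraries were apart, and its p53 KO and DKO libraries overlapped. The effect of ATRi was higher in DKO than in XRCC4 KO cells by 0.82 for MYBL2 and 0.61 for FOXM1. It was lower in DKO cells for RB1 (-0.35) and RBL2 (-0.25). The RB1 and RBL2 differences were not called with library totals in place of TMM factors. The XRCC4 differences of E2F8, E2F7 and E2F3 were not called with DESeq2. With limma on FPKM, neither the XRCC4 difference of RBL1 nor the ATRi difference of FOXM1 was called. Deletion and clone cannot be told apart here.

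In RPE-1 WT cells the count of MB21D1, the cGAS gene, was 2 in one library and 100 in the other. The 10 genes nearly coincided between those 2 libraries, for example FOXM1 at 16.3 and 16.5 CPM and E2F7 at 84.5 and 80.9 CPM.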

How the results depend on the processing

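The 18 counts of called genes and 180 log2 fold changes (95 called) were recomputed under 42 settings. A turn of sign was counted only where the main fit or the other fit called the gene. Of the fold changes under these settings 11 turned sign in this way. With the sign kept, 139 lost a call and 35 gained one, and RLE factors changed no call. Turned values were E2F2 (0.0174 and 0.0214 with limma on FPKM at the 2 pseudocounts) and E2F3 (0.0174 with library totals, 0.0235 and 0.0254 with limma) for ATRi in DKO, RB1 for p53 loss under ATRi (0.112 with library totals, 0.198 and 0.204 with limma), RBL2 for the ATRi difference (0.00667 and 0.00635 with limma) and RB1 for RPE-1 p53 KO (0.18 with library totals). Library totals moved the median of all genes by up to 0.396, and limma on FPKM by up to 0.445.

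Counts of called genes that moved by more than 1.5 times, or to or from 0, were as follows. At 5 days against untreated (2 called) they were 1 with no filter, 0 and 1 with limma at pseudocounts 1 and 0.1, 0 with the compared groups alone, 4 with the replicate block in the WT groups and 0 to 4 with 1 library left out. At 3 days (0 called) they were 1 with the replicate block in the WT groups and 0 to 1 with 1 library left out. For CDK1i (2 called) they were 4 with DESeq2, 1 with no filter, 1 with the earlier edgeR fit, 1 and 0 with limma, 0 with the compared groups alone, 6 with the replicate block in the WT groups and 0 to 5 with 1 library left out. For cGAS KO (1 called) they were 0 and 0 with limma and 0 to 1 with 1 library left out, and for STING KO (1 called) 0 and 0 with limma. For XRCC4 KO at 5 days (5 called) they were 1 with no filter, 2 with limma at pseudocount 1 and 0 to 2 with 1 library left out. Limma gave 3 and 3 for DKO against p53 KO (6 called), 3 and 3 for ATRi in XRCC4 KO (5 called) and 5 and 5 for ATRi in DKO (10 called). For the ATRi difference (4 called) they were 2 with library totals and 1 and 1 with limma. For the XRCC4 difference (7 called) they were 4 with DESeq2, 3 and 3 with limma and 4 to 6 with 1 library left out. With an arm of 1 library, that library was assumed to vary like the other groups. The causes were not tested.

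Replicate numbers paired the libraries of the 4 WT groups of the first experiment, but not those of that experiment as a whole or of the other two. The correlation of deviations of same-numbered libraries was above 0.1 in 7 of the 21 group pairs there, 6 of them between WT groups, and ran from -0.0493 to 0.0623 over 15 in the second and from -0.0229 to 0.0295 over 3 in the third. A block in the WT groups added 8 calls of the 10 genes and removed none. With the replicate block in all groups E2F1 was called for CDK1i (1.68, edgeR adjusted p = 0.0477) and E2F3 lost its call in the XRCC4 difference (0.25, edgeR adjusted p = 0.0521), and no other call of the 10 genes changed. Low counts limit E2F2 and E2F8, which had as few as 2 per library.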
